A study of Mus musculus with 20 samples.

Results

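The Ly49 receptors are lectin-like cell surface receptors of mouse natural killer (NK) cells, encoded by the Klra genes. They were followed here in RNA sequencing libraries of whole spleen. The 9 genes described, Klra1 to Klra9, were taken by their gene names from the deposited count table, which held 54532 genes. All lie on the minus strand of chromosome 6 (GRCm38), 8 of them between 129898996 and 130386874 and Klra2 apart from them at 131219223 to 131247362. The table held 5 further Klra genes in the same region (Klra10, Klra17 and the pseudogenes Klra11-ps, Klra13-ps and Klra14-ps), which were used for comparison.

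The spleens came from mice aged 4 weeks, 9 libraries from animals raised gluten-free and 11 from controls. Each library carries an ID that is a plain number or a number after the letter S, which gave 4 groups: gluten-free with plain IDs (7 to 10, n = 4), control with plain IDs (1 to 8, n = 8), gluten-free with S IDs (S1, S3, S5, S6 and S8, n = 5) and control with S IDs (S1, S2 and S6, n = 3). The strain and the meaning of the letter S are not given in the sources used here. The labels do not say that each ID is a separate mouse, so p-values measure the spread between these libraries. Mouse strains carry different sets of Klra genes; the part of strain in these values was not tested.

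NK cells carry several Ly49 receptors at once, each switched on in a part of the cells. Most members are inhibitory: they bind MHC class I molecules of the H-2 family and, through a tyrosine in their cytoplasmic tail (the ITIM motif), recruit phosphatases that restrain the cell. The products of Klra4 (Ly49D) and Klra8 (Ly49H) lack that tyrosine, activate the cell through the adaptor proteins encoded by Tyrobp and Hcst, and in the case of Ly49H recognise a protein of mouse cytomegalovirus. Klra1, Klra3, Klra5, Klra6, Klra7 and Klra9 encode the inhibitory receptors Ly49A, C, E, F, G and I, and Klra2 encodes Ly49B, an inhibitory receptor known from myeloid cells rather than from NK cells.

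The first coding bases are shown because they separate the activating from the inhibitory genes. The lines give bases 1 to 45 of the coding sequence (GENCODE M21 transcripts, GRCm38, first coding exon, chromosome 6, minus strand, read 5′ to 3′), with codon 8 in capitals.
Klra4: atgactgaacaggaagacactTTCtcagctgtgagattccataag
Klra8: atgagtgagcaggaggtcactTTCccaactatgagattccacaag
Klra1: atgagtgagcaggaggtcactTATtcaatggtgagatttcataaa
Klra7: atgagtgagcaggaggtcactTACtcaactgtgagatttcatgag
Klra9: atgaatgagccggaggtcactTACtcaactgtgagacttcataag
Klra2: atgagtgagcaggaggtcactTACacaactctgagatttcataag
Codon 8 was a tyrosine codon (TAT or TAC) in 7 of the 9 genes and a phenylalanine codon (TTC) in the other 2, Klra4 and Klra8. The letters GTCACTTAN, searched on the coding strand, occurred within the first 45 coding bases of those 7 genes and of 13 of 21535 protein-coding genes in all (0.0604%), 9 of them Klra genes. The Klra4 stretch lies at chr6:130065258-130065302 and the Klra8 stretch at chr6:130128116-130128160.

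The windows around the annotated transcript starts also shared a block of letters, shown for 4 genes whose values are described below. The lines give 60 bases of the promoter windows (RefSeq, GRCm38.p6, minus strand), with the shared block in capitals.
Klra4: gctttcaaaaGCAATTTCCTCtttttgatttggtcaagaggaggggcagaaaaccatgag
Klra8: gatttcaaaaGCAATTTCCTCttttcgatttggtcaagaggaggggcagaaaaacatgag
Klra6: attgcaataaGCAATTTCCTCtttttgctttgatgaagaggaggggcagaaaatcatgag
Klra2: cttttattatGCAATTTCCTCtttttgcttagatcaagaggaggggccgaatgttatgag
The block GCAATTTCCTC is 1 of the 2 longest runs (11 bases) found in windows of at least 7 of the 9 genes, and it was searched on both strands. It was found in windows of 7 genes and not in those of Klra1 and Klra7, and in 19 of 32851 windows of the same length in all (0.0578%). The stretches are chr6:130067305-130067364 for Klra4, chr6:130129933-130129992 for Klra8, chr6:130027028-130027087 for Klra6 and chr6:131247388-131247447 for Klra2.

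The genes are close copies of each other, which bears on how well short reads can be assigned to them. Over 36 pairs, aligned coding sequences were 73.1% to 95.9% identical at the base level (median 80.8%), and 6 pairs exceeded 90%. The closest pair was Klra3 and Klra9 (95.9%), and Klra8 was 91.9% identical to Klra9. The activating genes were not each other's closest relatives: Klra4 was 88.3% identical to Klra1 and 78.6% to Klra8.

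**Figure D1:**
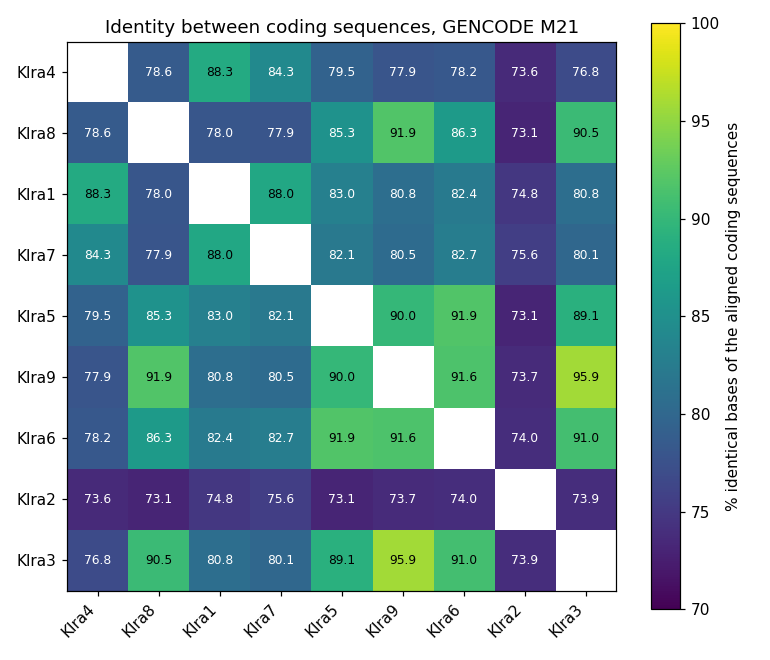
Percentage of identical bases between aligned coding sequences (longest coding transcript per gene) for each pair of the 9 Ly49 genes. Klra3, Klra5, Klra6, Klra8 and Klra9 form a block of high identity, Klra1, Klra4 and Klra7 a second one, and Klra2 is at most 75.6% identical to any other gene.

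Near-identity did not extend over whole transcripts for most genes. All 100-base windows of the transcripts of Klra1, Klra2, Klra4, Klra5 and Klra6 were absent from every other annotated gene, against 98.2% of the windows of Klra7, 98.2% of Klra3, 95.9% of Klra9 and 85.6% of Klra8. With 50-base windows the unique share was 95.3% for Klra4, 66.9% for Klra8 and 68.5% for Klra9. The longest run shared by Klra8 and its closest relative, the pseudogene Klra14-ps, was 195 bases, and that of Klra4 with Klra1 was 78 bases. Neither the read length nor the rule for ambiguous reads is given in the sources used here. By these windows of GRCm38 transcripts alone, values of Klra8, Klra9 and Klra3 are less certain than those of Klra4. Klra genes of other strains were not compared. No exon of another annotated gene overlapped the exons of the 9 genes.

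All 9 genes were rare in the spleen. Levels are in CPM, read counts relative to the library total, with library totals adjusted by edgeR's TMM factors. Their summed level was 11.2 to 13.5 CPM in gluten-free plain, 9.48 to 18.1 CPM in control plain, 5.31 to 13.9 CPM in gluten-free S and 11.6 to 18.1 CPM in control S libraries. One count was worth 0.0412 to 0.0734 CPM before scaling, and the 9 genes together had between 86 and 325 counts in a library. In whole spleen, fewer NK cells and less RNA per NK cell cannot be told apart.

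Per kb of gene length, so that genes can be compared, Klra1 was the highest member at 2.59 ± 0.76 CPM per kb (SD, n = 20 libraries). Klra7 followed at 1.99 ± 0.60 and was lower than Klra1 in 17 of 20 libraries. The activating genes came next, with Klra4 at 1.23 ± 0.65 and Klra8 at 1.22 ± 0.53 CPM per kb. These neighbours did not separate, since Klra4 was the higher one in 8 of 20 libraries. Klra5 had 0.881 ± 0.387, Klra9 0.478 ± 0.265 and Klra6 0.469 ± 0.237 CPM per kb, and the last 2 did not separate either, with Klra9 higher in 8 of 20 libraries. Klra2 was at 0.240 ± 0.157 CPM per kb. The row of Klra3 held 8 counts over the 20 libraries, at most 2 in any library, in 6 libraries. Klra17, which encodes the Ly49Q receptor of plasmacytoid dendritic cells and myeloid cells, exceeded every member at 6.40 ± 2.00 CPM per kb.

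**Figure D2:**
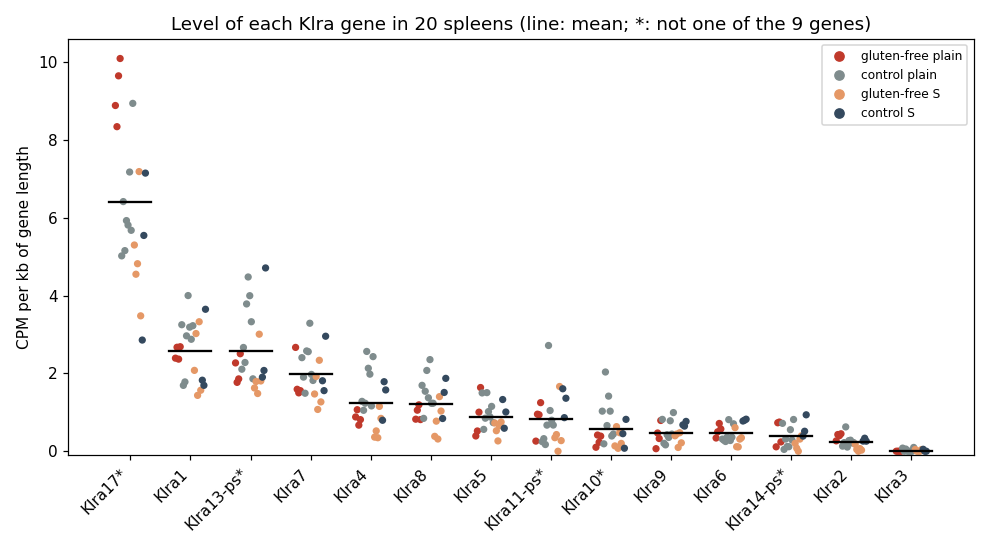
Level of each of the 14 Klra genes of the table in CPM per kb of gene length (vertical axis) in 20 spleen libraries, coloured by group, with a line at the mean and an asterisk on genes outside the 9. Klra1 (mean 2.59) and Klra7 (1.99) lead the 9 genes, Klra4 and Klra8 stand level at 1.23 and 1.22, and Klra3 lies at 0.0188.

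Before the comparisons between diets, libraries that stood apart were noted. Control 5, a plain-ID library, had a second principal component of log2 CPM of 0.18, within the 0.117 to 0.306 of the 8 S libraries, while the other 7 control plain libraries had -0.332 to -0.186. Gluten-free S1 had 884 CPM of Prss2, a pancreatic digestive enzyme, and control 4 had 75.8 CPM, against at most 2.21 CPM in the other 18 libraries. Library totals ran from 13626021 to 24268237 counts. Cell type markers moved with the diet in the plain IDs: all 13 erythroid markers tested were called lower (summed level 5437 to 8937 CPM in gluten-free plain and 11706 to 22564 CPM in control plain), and all 10 neutrophil and all 14 T cell markers were called higher (neutrophil sum 2920 to 7634 CPM in gluten-free plain and 717 to 2264 CPM in control plain). In the S IDs the erythroid sums were 11784 to 30372 CPM in gluten-free and 12891 to 26447 CPM in control libraries. The part of these markers in the values below was not tested beyond the covariate fits given beside them. In the plain IDs the erythroid sums did not overlap between diets, and neither did the sums of NK lineage markers given below. The covariate itself was the mean log2 CPM over the same markers, and its overlap between diets was not looked at. Fits with either level as a covariate were therefore not shown to tell that level apart from diet. A call lost or kept in them does not decide between the 2.

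The first comparison asked whether the receptors differed between gluten-free and control spleens with plain IDs. Klra4, the activating receptor Ly49D, fell to 1.07 CPM on average in the gluten-free spleens, against 2.15 CPM in the controls. Klra8, the other activating receptor, had a lower mean in the gluten-free spleens but missed the threshold, and the inhibitory receptors that make up most of the family's counts, Klra1 and Klra7, were not called. The main test was edgeR's quasi-likelihood test, adjusted over 18362 genes (Benjamini-Hochberg) and taken as a call where the adjusted p lay below 0.05.

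Klra4 (chr6:130043731-130067271) had 1.10, 1.33, 0.835 and 1.01 CPM in gluten-free 7, 8, 9 and 10, against 1.31 to 3.19 CPM in control plain libraries (median 2.03). All 4 gluten-free libraries lay below the control median, and the groups met only where gluten-free 8 slightly exceeded control 2. The means were 1.07 ± 0.21 CPM (SD, n = 4) in gluten-free and 2.15 ± 0.76 CPM (SD, n = 8) in control libraries, resting on 98 counts in gluten-free and 267 counts in control. The log2 fold change was -1.01 ± 0.30 (SE; edgeR adjusted p = 0.0131).

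Klra4 was the 1 of 8 tested members that was called, and it was called lower, while 22.1% of all tested genes were called lower, 17.5% higher and 39.6% in either direction; 1 of 8 is thus below the background. No member's groups were free of overlap, which 14.2% of tested genes were with gluten-free lower and 6.83% with gluten-free higher. Klra3 did not pass the filter on low counts. The median log2 fold change of the 8 tested members was -0.26, against 0.035 for all tested genes. Without control 5 the log2 fold change of Klra4 was -0.94 (adjusted p = 0.0224), and without control 4 it was -0.89 (adjusted p = 0.0268). With erythroid marker level as a covariate it was -1.79 ± 0.65 (adjusted p = 0.154) and 422 genes were called. With NK marker level as a covariate it was -1.82 ± 0.35 (adjusted p = 0.0189), 1 of 849 calls. When libraries were scaled by their totals alone, 6522 genes were called higher and 2043 lower, against 3216 and 4050 with TMM. The median gene then moved to 0.31 and Klra4 to -0.74 (adjusted p = 0.0596), so the call was lost. Relative to the median gene Klra4 was at -1.05, against -1.04 with TMM. A change of scaling shifts all genes nearly alike, so this likeness was fixed beforehand and is no check on Klra4.

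Klra8 (chr6:130115226-130129898) had 0.971, 1.24, 1.40 and 0.958 CPM in the gluten-free plain libraries, against 0.996 to 2.77 CPM in control plain libraries (median 1.72). All 4 gluten-free libraries lay below the control median, but the ranges overlapped. The log2 fold change was -0.65 ± 0.28 (adjusted p = 0.0710), and it passed the threshold in 1 of the 12 fits without 1 library, the one without control 2 (-0.75, adjusted p = 0.0332). With erythroid marker level as a covariate it was -0.030 ± 0.69 (adjusted p = 0.989).

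**Figure D3:**
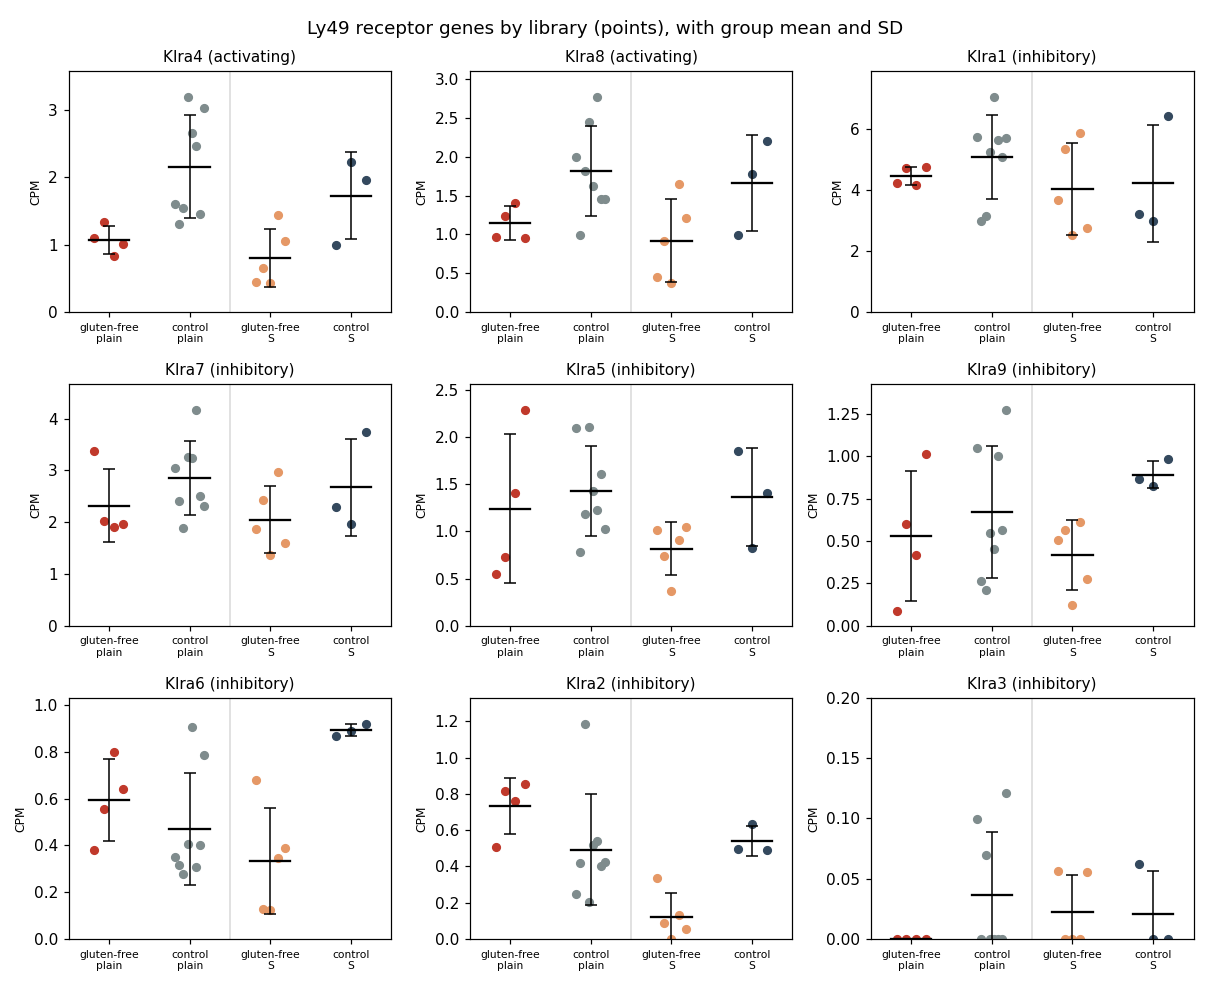
CPM of each of the 9 Ly49 genes in every library (points), with the mean and SD of each group, gluten-free left of control for either form of ID; each panel has its own vertical axis from 0. The Klra4 points of the gluten-free plain libraries (0.835 to 1.33) lie at the low end of the control plain points (1.31 to 3.19), and the Klra2, Klra6 and Klra9 points of gluten-free S libraries lie below all control S points.

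Among the inhibitory genes, Klra1 (chr6:130363917-130386874) had 4.22, 4.72, 4.18 and 4.74 CPM in the gluten-free plain libraries, against 2.99 to 7.06 CPM in control plain libraries (median 5.43). The 4 gluten-free values lay in a narrow band inside the control range, and the log2 fold change was -0.18 ± 0.21 (adjusted p = 0.509). Klra7 (chr6:130218605-130233322) had 3.38, 2.01, 1.90 and 1.97 CPM in the gluten-free plain libraries, against 1.89 to 4.16 CPM in control plain libraries (median 2.77). Gluten-free 7 stood above the other 3 gluten-free libraries, and the log2 fold change was -0.30 ± 0.24 (adjusted p = 0.336). Scaling by totals alone turned the sign of Klra1 (0.089) and Klra5 (0.053), with all genes shifted upwards as above.

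The remaining inhibitory genes had few counts and none was called. Klra5 was at 0.549 to 2.29 CPM in gluten-free plain and 0.786 to 2.11 CPM in control plain libraries (log2 fold change -0.22 ± 0.37, adjusted p = 0.655). Klra9 was at 0.0844 to 1.01 CPM in gluten-free plain and 0.210 to 1.27 CPM in control plain libraries (-0.37 ± 0.55, adjusted p = 0.612). Klra6 and Klra2 had positive estimates, 0.33 ± 0.40 and 0.58 ± 0.41, with adjusted p of 0.529 and 0.271.

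The share of the activating genes within the family showed the same contrast in counts. Klra4 and Klra8 together made up 18.5%, 21.4%, 19.2% and 14.6% of the counts of the 9 genes in gluten-free 7, 8, 9 and 10, against 21.6% to 32.4% in the control plain libraries (median 26.1%). The groups did not overlap, by a margin of less than 1 percentage point, and the means were 18.4% ± 2.8 (SD, n = 4) and 26.3% ± 3.9 (SD, n = 8). In the S IDs the share was 10.0% to 26.8% in gluten-free and 17.0% to 33.0% in control libraries, which overlapped. These shares were chosen with the Klra4 result known and carry no test.

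**Figure D4:**
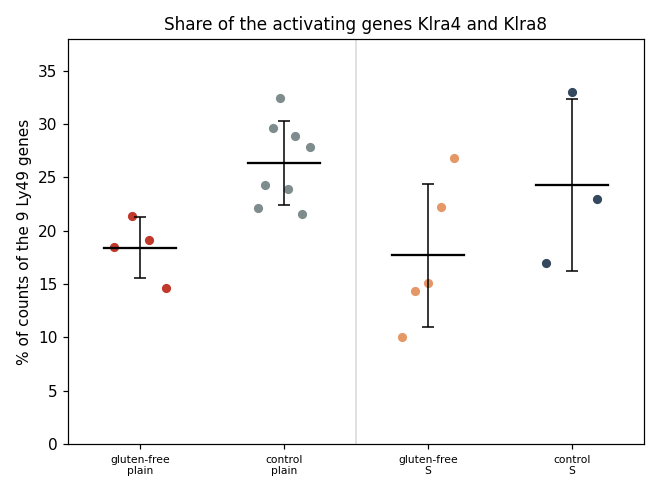
Share of the counts of the 9 Ly49 genes that fell on the activating genes Klra4 and Klra8, in percent, for each library (points), with the mean and SD of each group. Gluten-free plain libraries average 18.4% and control plain libraries 26.3%; gluten-free S libraries average 17.7% and control S libraries 24.3%, with overlapping points.

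The same comparison within the S IDs called no gene of the 18362 (959 had an unadjusted p under 0.05, and DESeq2 called 4), so no member was called. The 8 tested members all had negative log2 fold changes, with a median of -0.94 against 0.012 for all tested genes, and 4 of them (Klra2, Klra4, Klra6 and Klra9) had an unadjusted p under 0.05. The median was -0.41 over 17 other receptor genes of the NK gene complex and -0.12 over 16 NK lineage markers. Klre1, an NK receptor gene, averaged 2.72 ± 1.04 CPM in gluten-free S and 4.80 ± 2.17 CPM in control S libraries, and Ncr1, the NKp46 receptor, 5.74 ± 2.12 CPM in gluten-free S and 8.41 ± 2.49 CPM in control S libraries. Leaving out some single libraries turned the sign of Klra1, whose estimate was -0.062. In simulated counts at this sample size, changes were given only to genes averaging 1 CPM or more. Of these, 46% with a 2-fold change and 90% with a 4-fold change were called. Klra2, Klra6 and Klra9 averaged under 1 CPM in both S groups, so these shares do not cover them. The shares span genes of all levels from 1 CPM upwards. Klra4, Klra5 and Klra8 averaged 0.80, 0.82 and 0.92 CPM in gluten-free S libraries, and the shares were not computed for genes at their level.

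Klra4 had 0.451, 0.651, 0.432, 1.44 and 1.05 CPM in gluten-free S1, S3, S5, S6 and S8, against 0.991, 2.23 and 1.96 CPM in control S1, S2 and S6. The 5 gluten-free values were all under the control median, though gluten-free S6 and S8 exceeded control S1. The log2 fold change was -1.08 ± 0.46 (unadjusted p = 0.0412, edgeR adjusted p = 0.908), close in size to that of the plain IDs. The difference between the 2 effects was -0.068 ± 0.51 (adjusted p = 0.938), and its standard error does not exclude a difference. Klra8 had 0.451, 0.911, 0.371, 1.65 and 1.22 CPM in these gluten-free libraries, against 0.991, 1.78 and 2.21 CPM in the control libraries, and its log2 fold change was -0.83 ± 0.50 (adjusted p = 0.914).

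Klra2, Klra6 and Klra9 were the 3 tested members whose groups did not overlap in the S IDs, all lower in gluten-free libraries; 2.05% of all tested genes showed this, and 1.65% the reverse. Klra2 had 0.339, 0.0868, 0, 0.130 and 0.0553 CPM in gluten-free S1, S3, S5, S6 and S8, against 0.496, 0.636 and 0.490 CPM in control S1, S2 and S6. These values rest on 12 counts in 5 gluten-free libraries and 26 counts in 3 control libraries. Klra2 lay at 0 in gluten-free S5, and its highest gluten-free value was in S1. Klra6 had 0.677, 0.130, 0.124, 0.348 and 0.387 CPM in the gluten-free libraries, against 0.867, 0.890 and 0.920 CPM in the control libraries, which stood close together. Klra9 had 0.508, 0.564, 0.124, 0.609 and 0.277 CPM in the gluten-free libraries, against 0.867, 0.827 and 0.981 CPM in the control libraries. Gluten-free S5 was the lowest library for all 3 genes. The log2 fold changes were -2.09 ± 0.69 for Klra2, -1.42 ± 0.53 for Klra6 and -1.06 ± 0.48 for Klra9, each with an adjusted p of 0.908. Without gluten-free S1, the library with pancreatic transcripts, they were -2.77, -1.81 and -1.12, and no gene was called.

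The more abundant inhibitory genes overlapped between diets in the S IDs. Klra1 had 3.67, 5.34, 2.53, 5.87 and 2.77 CPM in gluten-free S1, S3, S5, S6 and S8, against 3.22, 2.99 and 6.44 CPM in control S1, S2 and S6. Klra7 had 1.86, 2.43, 1.36, 2.96 and 1.60 CPM in the gluten-free libraries, against 2.29, 1.97 and 3.74 CPM in the control libraries (-0.38 ± 0.34, adjusted p = 0.969). Both genes were high in gluten-free S6 and control S6 and low in gluten-free S5. Klra5 was at 0.371 to 1.05 CPM in gluten-free S libraries and 0.827 to 1.86 CPM in control S libraries (-0.73 ± 0.41, adjusted p = 0.913).

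**Figure D5:**
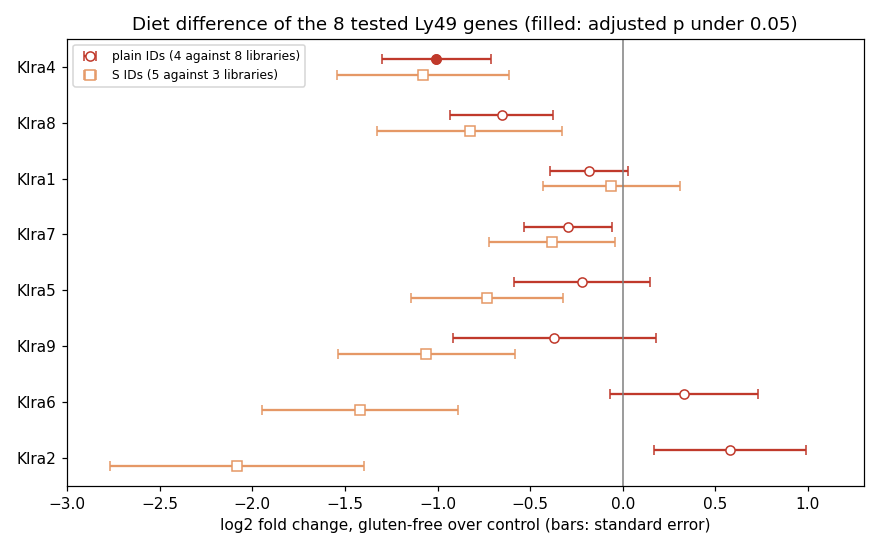
Log2 fold change of gluten-free over control (horizontal axis) with its standard error for the 8 tested Ly49 genes, for plain IDs (circles) and S IDs (squares); filled symbols passed an adjusted p of 0.05. Klra4 lies near -1 in both, at -1.01 and -1.08, while Klra2 lies at 0.58 in the plain IDs and -2.09 in the S IDs.

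The interaction of diet and ID form, fitted over all 20 libraries, tested whether the diet effects differed. Klra2 and Klra6 were called, both more negative in the S IDs, which is 2 of 8 tested members where 9.37% of all tested genes were called in that direction, 15.4% in the other and 24.8% in either. The difference in log2 fold change was -2.66 ± 0.76 for Klra2 (adjusted p = 0.0152) and -1.75 ± 0.63 for Klra6 (adjusted p = 0.0478). Klra2 was called in each of the 20 fits that left out 1 library (adjusted p 0.00412 to 0.0360). Klra6 was called in 4 of those 20 (adjusted p 0.0158 to 0.103). Both genes had a mean under 1 CPM. Without both control 5 and gluten-free S1 the differences were -3.36 for Klra2 (adjusted p = 0.00533) and -2.35 for Klra6 (adjusted p = 0.00819). In the same fit 12 of 13 erythroid markers were called higher, and 10 of 10 neutrophil and 4 of 12 monocyte and macrophage markers lower; their part in the Klra2 and Klra6 values was not tested. With libraries scaled by totals alone, 1294 genes were called higher and 2650 lower, against 2825 and 1720 with TMM.

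The ID forms were also compared within each diet, S over plain. Among gluten-free libraries, Klra2 was called lower in the S IDs, at 0 to 0.339 CPM (median 0.0868) against 0.506, 0.814, 0.759 and 0.852 CPM in gluten-free 7, 8, 9 and 10. The log2 fold change was -2.58 ± 0.57 (adjusted p = 0.00728). Monocyte and macrophage markers summed to 1311 to 1793 CPM in gluten-free S and 2075 to 2711 CPM in gluten-free plain libraries, with 4 of 12 called lower. Of the neutrophil markers, 8 of 10 were called lower. Their part in the Klra2 values was not tested. Klra2 was the 1 of 8 tested members called, where 15.4% of tested genes were called lower, 16.6% higher and 31.9% in either direction. With totals alone the whole comparison gave 1628 genes higher and 5787 lower, against 3041 and 2819 with TMM. Among control libraries no member was called, where 2.16% of all tested genes were called (1.64% higher, 0.517% lower), and Klra6 had the smallest unadjusted p (0.0479, log2 fold change 0.92 ± 0.43, adjusted p = 0.307). The other 7 tested members lay between -0.31 and 0.41 on the log2 scale.

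With both ID forms in 1 fit and a term for the form, edgeR called 0 genes (4559 had an unadjusted p under 0.05). Klra4 had a log2 fold change of -1.03 ± 0.25 (unadjusted p = 0.000511, adjusted p = 0.0979) and was below the control median of its ID form in 9 of 9 gluten-free libraries. Klra8 had -0.72 ± 0.26 (adjusted p = 0.107), also below that median in 9 of 9. The share of all tested genes with this trait was not counted. Among other NK receptor genes, Klre1 lay below that median in 4 of 4 plain and 5 of 5 S gluten-free libraries, and Klrd1 in 0 of 4 and 2 of 5. DESeq2 called 1557 genes in this fit, Klra4 among them (-1.04, adjusted p = 0.0165). Of the 20 edgeR fits without 1 library, Klra4 was called in 2 and not called in 18 (adjusted p 0.0151 to 0.2925). The 2 were the fits without gluten-free S8 (adjusted p = 0.0151, 2923 genes) and without control S6 (adjusted p = 0.0157, 3718 genes).

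The other Klra genes did not follow 1 direction in the plain IDs. Klra17 rose, with 10.6, 9.95, 11.5 and 12.0 CPM in gluten-free 7, 8, 9 and 10, against 5.99 to 10.7 CPM in control plain libraries (median 7.00; log2 fold change 0.56 ± 0.15, adjusted p = 0.00737). Klra10 fell, on 21 counts in gluten-free and 91 counts in control libraries (-1.64 ± 0.59, adjusted p = 0.0354), and lost the call in 7 of the 12 fits without 1 library. The pseudogenes Klra13-ps (-0.54 ± 0.25, adjusted p = 0.0983) and Klra14-ps (0.31 ± 0.62, adjusted p = 0.718) were not called. Klra11-ps was at 0.04 ± 0.59 (adjusted p = 0.964). With erythroid marker level as a covariate Klra17 was at -0.18 ± 0.31 (adjusted p = 0.805) and Klra10 at 0.88 ± 1.35 (adjusted p = 0.779). With NK marker level Klra17 was at 0.18 ± 0.21 (adjusted p = 0.707) and Klra10 at -1.72 ± 0.91 (adjusted p = 0.307). Beside Klra17, 6 of 9 innate lymphoid and dendritic cell markers were called higher and 1 lower. The summed level of 12 monocyte and macrophage markers was 2075 to 2711 CPM in gluten-free plain and 1195 to 1670 CPM in control plain libraries. Of these 12 markers 3 were called higher and 0 lower, and their log2 fold changes ran from -0.19 to 1.07 with a median of 0.066. The part of these cells in the Klra17 values was not tested.

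In the S IDs the 5 further Klra genes all had negative log2 fold changes and none was called. They were -1.59 ± 0.71 for Klra14-ps, -1.16 ± 0.78 for Klra11-ps, -0.57 ± 0.37 for Klra13-ps, -0.50 ± 0.77 for Klra10 and -0.039 ± 0.32 for Klra17.

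Genes of the same pathway were compared from lists chosen with earlier results known. Of 17 other receptor genes of the NK gene complex, 2 were called lower and 2 higher in gluten-free plain spleens, where 22.1% of all tested genes were called lower and 17.5% higher, so both counts are below the background. Klre1, an NK lectin-like receptor gene, fell (-0.63 ± 0.22, adjusted p = 0.0323), with 3.26 to 4.25 CPM in gluten-free plain and 3.25 to 8.71 CPM in control plain libraries; it lost the call in 8 of 12 fits without 1 library. Klrb1f rose (0.87 ± 0.23, adjusted p = 0.00765), as did the activation marker Cd69 (0.59 ± 0.21, adjusted p = 0.0358), which lost the call in 2 of 12 such fits. Klrk1, the activating receptor NKG2D (-0.17 ± 0.11, adjusted p = 0.219), and Klrd1, the CD94 chain (0.35 ± 0.17, adjusted p = 0.114), were not called.

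Of 16 NK lineage markers, 5 were called higher and none lower in gluten-free plain spleens, against 17.5% higher and 22.1% lower over all tested genes. Nkg7, a granule protein of cytotoxic cells, rose to 33.8 ± 5.3 CPM in gluten-free plain libraries, against 21.7 ± 2.8 CPM in control plain libraries (0.64 ± 0.11, adjusted p = 0.000402). Itga2, the integrin recognised by the DX5 antibody, rose by 0.55 ± 0.14 (adjusted p = 0.00469) and the chemokine gene Xcl1 by 0.68 ± 0.25 (adjusted p = 0.0365) on the log2 scale, and Xcl1 lost the call in 6 of 12 fits without 1 library. Ncr1, the NKp46 receptor, was at 8.75 ± 1.20 CPM in gluten-free plain and 10.2 ± 2.5 CPM in control plain libraries (-0.22 ± 0.18, adjusted p = 0.361). The summed level of the 16 NK lineage markers was 262 to 279.6 CPM in gluten-free plain and 191 to 249 CPM in control plain libraries. It was 166 to 250.4 CPM in gluten-free S and 205 to 293 CPM in control S libraries, with no marker at 0 throughout. In the plain IDs the log2 fold changes of the list ran from -0.22 to 0.68, with a median of 0.28. Eomes averaged 7.68 CPM in gluten-free plain and 7.34 CPM in control plain libraries, and Gzma 16.3 and 16.9 CPM. Whether the sum follows the number of NK cells was not tested. Among control libraries Itga2 was the NK marker called between ID forms (1.28 ± 0.26, S over plain, adjusted p = 0.0194), and it lost the call in 2 of 11 fits without 1 library.

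Of 10 signalling partners of Ly49 receptors, 8 were called higher and none lower in gluten-free plain spleens, against the same 17.5% and 22.1% over all tested genes. The adaptor gene Tyrobp, which the activating receptors need and which myeloid cells also express, had 94.3 ± 11.8 CPM in gluten-free plain and 72.8 ± 12.6 CPM in control plain libraries (0.38 ± 0.13, adjusted p = 0.0278, lost in 3 of 12 fits without 1 library). Plcg2 (0.58 ± 0.11), Zap70 (0.71 ± 0.14) and Vav1 (0.47 ± 0.10), which act downstream of activating receptors in several blood cell types, had adjusted p of 0.000493, 0.000670 and 0.00191. Of 6 genes of MHC class I molecules, the kind of molecule that holds the Ly49 ligands, 5 were called higher. H2-K1 was at 0.48 ± 0.09, H2-D1 at 0.37 ± 0.10 and B2m at 0.34 ± 0.09 on the log2 scale (adjusted p = 0.000740, 0.00690 and 0.00705). Not every gene of this list encodes a Ly49 ligand. The same list medians in the S IDs were -0.13 for the partners and 0.13 for the class I genes, with no gene called. These calls stood beside the erythroid, neutrophil and T cell markers given above. With erythroid marker level as a covariate none of the genes named in this and the 2 preceding paragraphs was called. That fit was not shown to tell erythroid level apart from diet, as stated above.

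Libraries were also compared for which genes varied together, after the 4 group means were taken out of log2 CPM. Pearson's r is given over 20 libraries as a description, with library depth and cell makeup shared by all genes. Over the 5 members averaging 1 CPM or more, r between pairs ran from 0.038 to 0.75, with a median of 0.47. The highest pairs were Klra1 with Klra7 (0.75) and Klra4 with Klra8 (0.74). Klra4 had r of 0.95 with Klra8 and 0.40 with Klra1 within the 8 S libraries. Within the 12 plain libraries the order was the other way, with r of 0.42 with Klra8 and 0.64 with Klra1.

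Among 15076 genes averaging 1 CPM or more, those most like Klra4 were Klri2 (r = 0.77), an NK receptor gene of the same chromosome, Zfp119a (0.75) and Klra8 (0.74). Those most like Klra1 were Trp53i13 (0.88), Lgi2 (0.86) and Gpr162 (0.84). For Klra8 they were Fblim1 (0.79), Zbed3 (0.78) and Klra4, and for Klra7 Zc3h8 (0.79), Pfn2 (0.76) and Adamts14 (0.75). Klra1 also had r of 0.81 with Klrd1 and 0.79 with Klre1. The most alike genes of each member were picked as the highest r among 15076 genes. How high r runs for an unrelated gene was not tested.

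The neighbours of Klra5 were Glb1l2 (0.83) and the adipocyte genes Fabp4 (0.82) and Adipoq (0.81). In the same order, r was 0.91, 0.89 and 0.84 within the 12 plain libraries. Within the 8 S libraries it was 0.64, 0.64 and 0.74. Fabp4 encodes a fatty acid binding protein and Adipoq the hormone adiponectin. Gluten-free 10 had the highest Klra5 (2.29 CPM) and the highest Adipoq (16.6 CPM) of the 20 libraries, where Adipoq ran from 1.68 CPM upwards with a median of 4.79. Fabp4 was highest in control S1, at 62.8 CPM, against a median of 21.3 CPM. The part of fat tissue in the Klra5 values was not tested.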

How the data were processed

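Whole spleen total RNA was sequenced on an Illumina instrument, per the labels' protocols. The values are raw read counts per gene as deposited by the authors, not normalized. CASAVA, HISAT2 2.0.5 and featureCounts 1.5.0 were used with GRCm38 (mm10), per the submitters' processing notes; strand setting, annotation release and the handling of reads matching several places are not given in the sources used here. Gene coordinates in the table equalled GENCODE M21.

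The test was edgeR 4.0.16 in R 4.3.3 (quasi-likelihood, two-sided, TMM scaling, filterByExpr, 18362 genes) and called at a Benjamini-Hochberg adjusted p under 0.05. The SE was taken as |log2 fold change| / √F. Alternatives used DESeq2 1.42.0 and limma 3.58.1. The fit was tested on simulated data, where 68% of 2-fold changes, given to genes averaging 1 CPM or more, were called in the plain IDs. CPM values are counts over TMM-scaled totals, and log2 CPM used a prior count of 2. No library was a copy of another (47 pairs within groups, chi-square per degree of freedom at least 5.72).

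The 9 genes, the gene lists and the comparisons were chosen with earlier results of these data known. Named genes are all Klra genes, the 3 called genes of smallest p in each NK list by diet in the plain IDs and by ID form in control, Klrk1, Klrd1, Klre1, Ncr1 and Tyrobp in any case, and the 3 genes most like each member averaging 1 CPM or more. Proteins were not analysed here.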

Additional observations from a re-analysis of the deposited data

Results flagged for a closer look

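Klra2 in control 3 was 1.19 CPM, and the next highest control plain library had 0.540 CPM, so that 1 library stood apart from the other 7. Klra7 in gluten-free 7 was 3.38 CPM, and the next highest gluten-free plain library had 2.01 CPM. A lone library was looked for in 24 combinations of gene and group, and chance alone marks about 1 in 20 of such groups. The effect of the diet differed between the ID forms for Klra2, by -2.66 ± 0.76 on the log2 scale (S minus plain, edgeR adjusted p = 0.0152), and for Klra6, by -1.75 ± 0.63 (adjusted p = 0.0478). The same fit called 24.8% of all tested genes, so such calls were common. Of the 20 fits without 1 library, Klra2 kept the call in 20, and Klra6 lost it in 16. Klra2 held 12 counts in all in the gluten-free S libraries.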

How the results depend on the processing

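Klra4 was called lower in the plain IDs in all 12 fits without 1 library (-1.13 to -0.89, adjusted p 0.00815 to 0.0490). In the plain IDs, leaving out 1 library gave 5888 to 8684 called genes and 1 to 2 members. Under library totals alone 0 members were called, and Klra1 (0.089), Klra5 (0.053), Klrk1 (0.11) and Ncr1 (0.058) changed sign. With erythroid level as a covariate 422 genes and 0 members were called, and signs changed for Klra5 (0.95), Klra6 (-0.37), Klra10 (0.88), Klra17 (-0.18), Zap70 (-0.16), Vav1 (-0.16), H2-D1 (-0.088), B2m (-0.017), Cd69 (-0.82) and Klrd1 (-0.67). With NK level as a covariate 849 genes were called, and signs changed for Klra6 (-0.78), Klra14-ps (-0.21) and Klrd1 (-0.13). The causes were not tested, and in the plain IDs neither covariate was shown to be separable from diet. Without 1 library, Klra5 ran from -0.67 up to 0.027 and Klra14-ps from -0.041 up to 0.63.

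Libraries with the same number had correlations of deviations of -0.20 to 0.38. Libraries with different numbers were not compared in this way, so it was not settled whether the numbers pair the libraries. With the replicate block, which keeps few libraries, the plain IDs gave 38 genes and 0 members (Klra4 -0.75, adjusted p = 0.868), with Klra6 at -0.25, Klra7 at 0.18 and Klra14-ps at -0.51. The block gave 103 genes in the S IDs (Klra1 0.018) and 0 genes between ID forms in control.

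In the S IDs DESeq2 called 4 genes, and Klra1 was 0.18 with the NK covariate and -0.25 to 0.39 without 1 library. With both forms pooled, 1 gene was called with no filter, by limma-voom, with no term for the form and with the NK covariate, and DESeq2 called 1557 genes and 1 member; without 1 library 0 to 3718 genes and 0 to 1 members were called. Without both control 5 and gluten-free S1, chosen after seeing the data, pooled Klra4 was -0.95 (adjusted p = 0.132). The interaction called 1 member with no filter, 0 among genes averaging 1 CPM or more, which leaves Klra2 and Klra6 out, and 1 to 2 without 1 library. Between ID forms in control, DESeq2 called 910 genes, and 0 to 942 were called without 1 library; in gluten-free libraries 0 members were called among genes averaging 1 CPM or more. Members under 1 CPM rest on few counts per library.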
